A study of Rattus norvegicus with 15 samples.

Results

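Among 10 RNA-seq libraries from dorsal CA1 of trained rats, 3 held the transcripts that mark the choroid plexus at far lower levels than the other 7, with the mean level of the marker Ttr at 2.19% of that in the 7. The 3 were chosen by 1 measured value, a level of Ttr below 100 CPM (reads scaled to the size of the library), and are called the low-Ttr libraries here. They are scrambled trained libraries 5 and 16 and Rnf20-labelled library 20, and the remaining 7 trained libraries are 6, 10 and 15 of the scrambled group and 4, 8, 14 and 18 of the Rnf20-labelled group. The series holds 15 libraries in all, and the 5 naive ones took no part in the choice. Since Ttr in these trained libraries made the split, every value that sets the 3 against the 7 is a description without a test.

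All animals were male wild-type Sprague-Dawley rats of 8 to 9 weeks whose dorsal CA1 had been injected with Accell siRNA, a form that enters cells without a transfection reagent. The naive group (n = 5) carried the control siRNA, Scr-siRNA, called scrambled here, and was not trained. The scrambled trained group (n = 5) carried the same control siRNA and underwent contextual fear conditioning, in which an animal learns to link a place with a shock, 5 days after the injection. The Rnf20-labelled group (n = 5) was trained in the same way after siRNA against Rnf20, a ubiquitin ligase that acts on histone H2B. The labels give the tissue as dorsal CA1 with all brain cell types, and they do not say whether each library came from its own animal, so p-values measure the spread between these samples only. Rnf20 mRNA stood at 41.8 ± 2.16 CPM in naive, 43.3 ± 5.01 in scrambled trained and 41.9 ± 2.46 in Rnf20-labelled libraries (mean ± SD, n = 5 each). Between the Rnf20-labelled and scrambled trained groups it differed by −0.04 on the log2 scale, with a 95% interval from −0.22 to 0.13 (edgeR adjusted p = 0.945).

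The choroid plexus is the sheet of epithelium, folded around leaky capillaries, that hangs into the brain ventricles and secretes cerebrospinal fluid. Its cells move sodium, chloride, bicarbonate and water from blood to fluid, and they seal the gaps between themselves with tight junctions. They also release carrier proteins, above all transthyretin, the product of Ttr, which binds thyroid hormone and the retinol carrier. Plexus lies in the lateral ventricle next to the hippocampus but is no part of CA1, whose own cells are neurons, glia and vessel cells. Only RNA levels were measured, so the way in which plexus transcripts came to be in a library is not known from these data. In bulk tissue, fewer cells of a type and less RNA per cell cannot be told apart.

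Ttr separated the low-Ttr libraries from every other library by a wide gap. In scrambled trained libraries 5, 6, 10, 15 and 16 it stood at 6.99, 1321, 3938, 1991 and 37.4 CPM. In Rnf20-labelled libraries 4, 8, 14, 18 and 20 it stood at 1696, 1308, 728, 1570 and 73.3 CPM. The value just under the limit was therefore that of library 20, and the value just above it was that of library 14. In naive libraries 1, 2, 9, 11 and 12 the levels were 1559, 1287, 3937, 1627 and 4008 CPM, so that none of the 5 naive libraries was low. The low values rest on 114, 627 and 1041 reads, and the same 3 libraries fell under the limit when raw totals replaced the scaled ones (6.71, 37.1 and 73.5 CPM). The totals of the low-Ttr libraries, 14164926 to 16998453 reads, lay inside the 12537250 to 20644425 reads of the other trained libraries. Naive libraries held 14249375 to 17046535. A part of depth in the split was not tested. Mitochondrially encoded transcripts made up 11.2% to 13.3% of the reads of the low-Ttr libraries and 8.47% to 12.7% of those of the other trained libraries.

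The choroid plexus was followed through 43 genes in 6 roles: secreted proteins, receptors, transcription factors, ion and water transport, solute transport, and junctions and structure. Of these, 42 were matched to the count table, 2 of them through a synonym (Ca12 for Car12, and Slco1a2 for Slco1a5), and Otx2 was not analysed here. A filter on low counts was passed by 40 of the 42, the exceptions being Cldn3 and Rdh5. In the mean, 41 of the 42 were lower in the low-Ttr than in the other trained libraries. For 31 of them all 3 low-Ttr libraries lay below all 7 others, where 1.18% of all 14880 genes tested did so. No member lay above all 7, where 0.853% of all genes did. With a difference of at least 1 on the log2 scale added, 28 members remained, and 82 of all genes met that rule (0.551%). The median difference of mean log2 CPM over the 42 members was −2.03, and over all genes it was −0.004. It was −2.39 between the low-Ttr and other libraries of the scrambled label and −1.96 within the Rnf20 label.

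**Figure D1:**
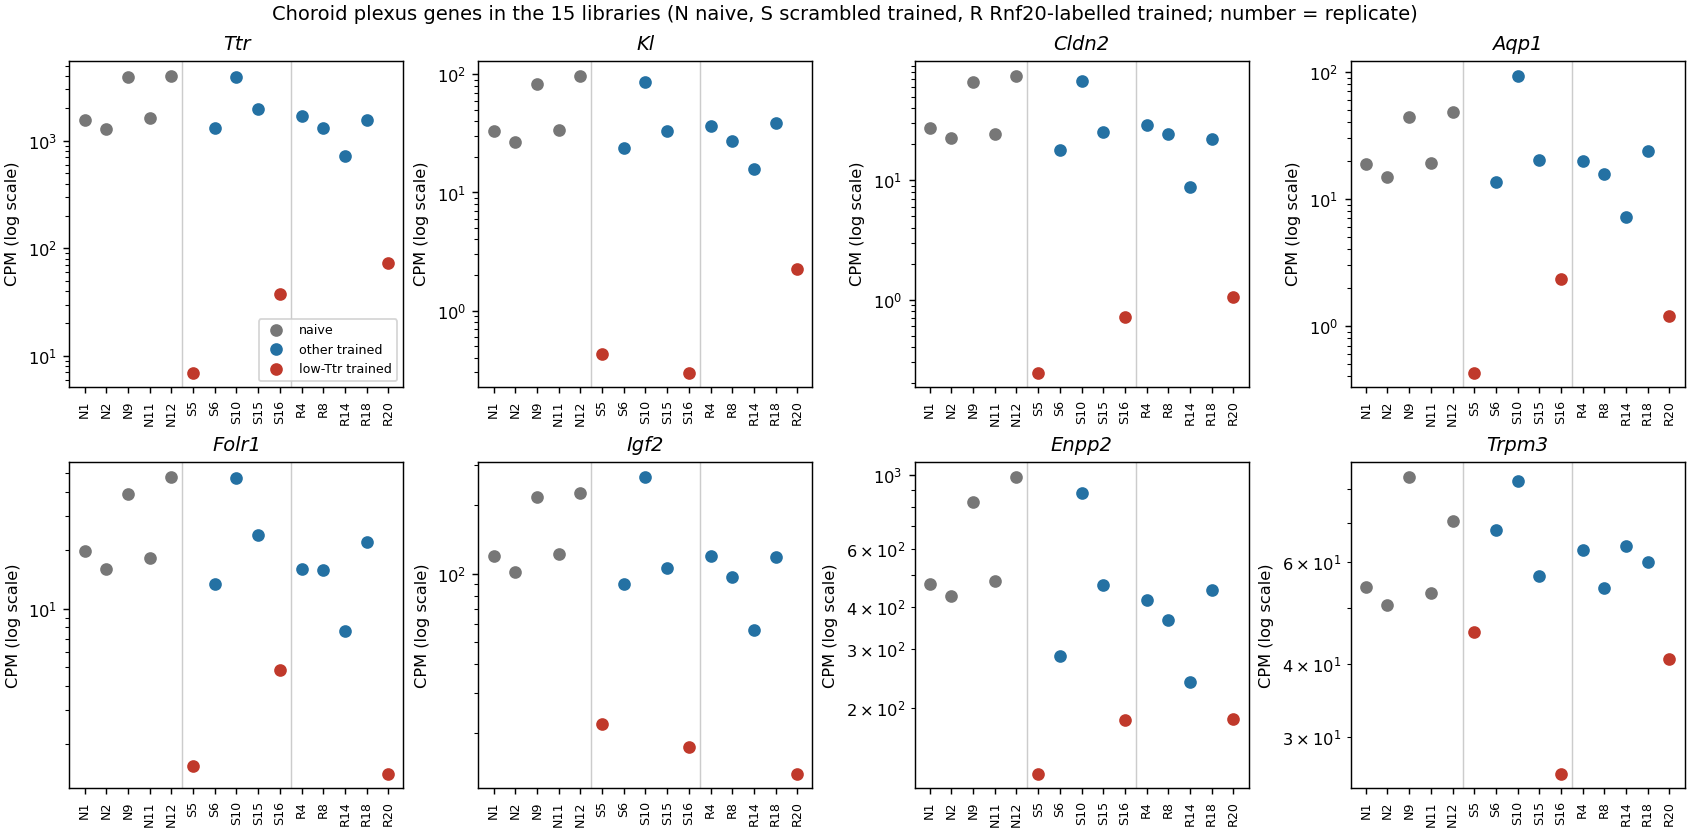
Level in CPM (vertical axis, log scale) of 8 choroid plexus genes in each of the 15 libraries (N naive, S scrambled trained, R Rnf20-labelled, with replicate numbers). Each point is 1 library, and the 3 low-Ttr libraries (S5, S16, R20) lie lowest in every panel, far apart from the others for Ttr and Kl and close to them for Trpm3.

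The secreted members spanned nearly the whole range of levels kept, and 5 of the 8 did not overlap. The level kept is given here as the mean CPM of the 3 low-Ttr libraries in percent of the mean CPM of the 7 others. Sostdc1, a secreted antagonist of BMP and Wnt signals, kept 1.88%. It had no read in library 5, 1 read in library 16 and 14 reads in library 20, which is 0, 0.06 and 0.99 CPM, against 6.47 to 41.7 CPM in the other trained libraries. The absence of reads in library 5 allows a level of up to 0.184 CPM (3 reads, counting error only). Ttr kept 2.19%, and F5, coagulation factor V, kept 3.65%. Igf2, a growth factor that the plexus and the meninges both release, kept 14.3%, with 21.8, 17.2 and 13.2 CPM in libraries 5, 16 and 20 and 56.8 to 266 CPM in the others. Enpp2 (autotaxin), which makes lysophosphatidic acid and is also made by oligodendrocytes, kept 37.2%. Its levels of 127, 183 and 185 CPM in libraries 5, 16 and 20 lay below the lowest of the other trained libraries, 239 CPM, and that range reached 879 CPM. Igfbp2, which binds insulin-like growth factors, kept 43.6%, Wfikkn2, an inhibitor of GDF signals, kept 45.9%, and both overlapped between the sets. Ecrg4, a secreted peptide precursor, kept 94.0%.

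All 5 receptors lay below without overlap, with a median difference of −3.51. Kl (klotho), the co-receptor for FGF23, kept 2.65%. Kl stood at 0.43, 0.30 and 2.25 CPM in libraries 5, 16 and 20, at 15.9 to 86.9 CPM in the other trained libraries and at 26.8 to 97.1 CPM in the naive ones. Prlr, the prolactin receptor, kept 4.19% and had no read in library 5. Mfrp, a frizzled-related membrane protein, kept 5.09%, and Folr1, the folate receptor that carries folate into the fluid, kept 12.4%. Htr2c, a serotonin receptor that the plexus shares with neurons, kept 33.1%, with 16.9, 9.97 and 13.7 CPM in the low-Ttr libraries and 23.6 to 81.8 CPM in the others. Of the transcription factors, Lmx1a, a factor of the roof plate and its derivatives, kept 1.90%. Msx1, a homeobox factor with other sources in brain, kept 47.8%. Lmx1a was thin everywhere, with 0 to 1 read in each low-Ttr library and 10 to 96 in the other trained libraries.

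Ion and water transport genes had a median difference of −3.07, and 7 of the 8 did not overlap. The potassium channel Kcnj13 kept 3.07%, the chloride channel protein Clic6 3.21% and the water channel Aqp1 4.79%. Aqp1 stood at 0.43, 2.33 and 1.20 CPM in libraries 5, 16 and 20, and its 7.14 to 92.7 CPM elsewhere in training had its top value in scrambled trained library 10. The bicarbonate transporter Slc4a5 kept 8.64%, the potassium channel subunit Kcne2 14.0% and the cation channel Trpv4 16.6%. Trpm3, a cation channel that neurons also express, kept 58.4% but still did not overlap (25.9 to 45.4 CPM against 54.0 to 82.7). Ca12, a carbonic anhydrase, kept 66.7% and overlapped. Solute carriers had a smaller median difference, −1.56, and 5 of the 7 did not overlap. Slco1a2, an organic anion transporter from a family of near-identical copies whose reads may be split between them, kept 2.50%. The other members ranged from 17.2% for Steap1, a metal reductase, over 27.7% for the lactate carrier Slc16a8, 29.5% for the sulfate carrier Slc13a4, 31.4% for the retinoid transporter Abca4 and 59.4% for the glucose transporter Slc2a12, to 74.6% for the proline carrier Slc6a20.

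Junction and structural genes had a median difference of −1.68, with 7 of 12 without overlap. Their range was the widest of any role only through Rdh5, which failed the filter on low counts. Cldn2, the tight junction protein that lets cations and water pass between plexus cells, kept 2.41%, with 0.25, 0.72 and 1.06 CPM in libraries 5, 16 and 20 and 8.71 to 67.7 CPM in the others. Tmem72, a membrane protein, kept 2.48%, and the collagen Col8a1 kept 9.72%. The keratins of simple epithelia kept 18.2% (Krt18) and 48.2% (Krt8), the peptidase Ace 21.5%, the claudin Cldn1 28.2% and the calmodulin-like Calml4 38.7%. Cab39l kept 76.5% and the cartilage-type collagen Col9a3 80.3%. Cldn3 and Rdh5 averaged under 1 CPM, and Rdh5 was the only member with a higher mean in the low-Ttr libraries, resting on 1.06 CPM in library 20. Taking all roles, 12 members kept under 5%, 10 kept 5 to 25%, 12 kept more than 25 and up to 50%, and 8 kept over 50%.

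The 3 low-Ttr libraries were not ranked alike by all members. Ttr was higher in library 16 (37.4 CPM) than in library 5 (6.99 CPM), while Kl was 0.30 CPM in library 16 and 0.43 in library 5. Library 20 held the most Ttr, Kl, Sostdc1, Tmem72 and Cldn2 of the 3, but the least Igf2 and Folr1. Folr1 stood at 4.83 CPM in library 16, 1.53 in library 5 and 1.41 in library 20. Summed over the 42 members, the list came to 426, 512 and 529 CPM in libraries 5, 16 and 20, to 1490 to 6724 CPM in the other trained libraries and to 2518 to 6830 CPM in the naive ones. With Ttr left out of the sum, the 3 libraries held 419, 475 and 455 CPM and the other trained libraries 762 to 2786 CPM.

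Where Ttr was not low, most members varied along with it. Over the 12 libraries above the limit, naive and trained, log2 Ttr had an SD of 0.76. The other 38 members with at least 10 reads in each of those libraries had a median SD of 0.76 in level and 0.34 in their log2 ratio to Ttr. For 30 of the 38 the ratio varied less than the level, least of all for Kl (SD 0.15) and Folr1 (0.17). For Slc6a20, Ecrg4, Col9a3, Ca12, Trpm3, Cab39l, Calml4 and Cldn1 the ratio varied more than the level, and all of these but Calml4 and Cldn1 kept over 50% in the low-Ttr libraries. All members of a library share its depth and scaling, so these spreads describe the libraries and carry no test.

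Promoter sequences were read for the motif TAATCC, or GGATTA on the other strand, which homeodomain proteins of the OTX type bind, Otx2 being a factor of plexus identity. In the RefSeq table for GRCr8, which is another build than that of the counts, windows of 250 bases before to 50 after a gene's start were given for 34 of the members, in 37 windows. The motif occurred in 3 of the 37 (8.11%) and in 2399 of all 33469 windows (7.17%), so its share among the members was near that of all promoters. The 3 windows were those of Abca4, Ace and Mfrp. Ace and Mfrp are shown because both also followed Ttr in the naive libraries, with the motif in capitals, both windows on the plus strand, Ace at chr10:91409879-91410178 and Mfrp at chr8:53342284-53342583. A match is a string of letters and not a site shown to be bound.
Ace: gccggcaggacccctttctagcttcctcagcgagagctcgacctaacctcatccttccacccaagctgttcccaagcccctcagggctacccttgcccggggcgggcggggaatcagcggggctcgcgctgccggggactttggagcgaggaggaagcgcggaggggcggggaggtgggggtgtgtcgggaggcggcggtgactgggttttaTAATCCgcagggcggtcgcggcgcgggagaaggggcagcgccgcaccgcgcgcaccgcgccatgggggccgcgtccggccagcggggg
Mfrp: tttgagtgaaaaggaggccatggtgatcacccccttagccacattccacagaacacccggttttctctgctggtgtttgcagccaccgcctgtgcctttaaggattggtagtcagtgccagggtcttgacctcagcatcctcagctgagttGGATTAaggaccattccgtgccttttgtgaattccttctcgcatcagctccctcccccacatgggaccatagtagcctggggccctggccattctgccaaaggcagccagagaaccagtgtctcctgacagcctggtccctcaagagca

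Lists of other cell types and regions had medians between −1.24, for blood, and 0.45, nearer to 0 than the −1.56 or lower of each choroid plexus role. Cilia genes of the ependyma, the cell layer that lines the ventricles and borders on the plexus, had a median difference of −0.65, with 14 of 17 lower in the mean and 3 without overlap. These were Dnah5, a dynein of motile cilia, which kept 47.8% (1.90 to 2.75 CPM against 3.15 to 5.92), Spag6l at 56.3% and Cfap126 at 60.5%. Hydin kept 51.7% and overlapped. Cfap126 was named after its values were seen. Meningeal fibroblast genes had a median of −0.19, which was 0.07 within the scrambled label and −0.71 within the Rnf20 label. The proteoglycan Fmod was the only one of these 12 without overlap, at 6.01, 8.00 and 3.94 CPM in libraries 5, 16 and 20 and 9.54 to 44.4 CPM in the others, while Mgp kept 65.9% and overlapped. Endothelial (median 0.04), mural (0.09) and astrocyte (0.01) lists were close to all genes, with Plvap, a protein of leaky vessels, at 63.3%, Tagln at 55.1% and S1pr1 at 120%. Oligodendrocyte genes had a median of −0.14, with Mag at 86.3%, and their precursors one of −0.24, with Pdgfra at 77.6%.

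Blood, interferon and macrophage lists were lower in the mean without a clear gap. The haemoglobin and erythroid list had a median of −1.24, and Hbb stood at 72.0, 154 and 61.7 CPM in libraries 5, 16 and 20 against 71.0 to 510 CPM in the other trained libraries. Reads of the alpha globin copies may be split among near-identical genes. Interferon-stimulated genes had a median of −0.64, with Mx2 at 41.8%, border macrophage genes one of −0.37, with Stab1 at 37.3%, and microglia genes one of −0.25, with C1qc at 60.9%. Reactive glia genes had a median of −0.13, but −0.69 within the scrambled label and 0.11 within the Rnf20 label. Their mean log2 CPM was 4.49, 5.77 and 4.72 in libraries 5, 16 and 20 and spanned 3.21 to 6.67 in the others. Spp1 (osteopontin), a gene of this list, stood at 96.0 to 134 CPM in the low-Ttr libraries, within the 5.97 to 886 CPM of the others. The part of these lists in the difference was not tested.

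Neuronal lists were slightly higher in the low-Ttr libraries, and lists of neighbouring regions varied. The median was 0.20 for pan-neuronal genes, all 11 of which were higher in the mean, 0.38 for CA1 and 0.45 for neocortex genes. Within the scrambled and the Rnf20 label in turn it was 0.74 and 0.03 for CA1 genes. In the same order it was 0.28 and 0.27 for pan-neuronal and 0.48 and 0.58 for neocortex genes. Mpped1 of the CA1 list kept 127%, and Tbr1 of the neocortex list kept 169%. Medians were −0.25 for CA3 (Coch 65.5%), −0.24 for dentate (Dsp 47.6%), −0.44 for thalamus (Synpo2 46.8%) and −0.62 for striatum genes. The dentate median changed sign between the labels, with 0.12 within the scrambled and −0.79 within the Rnf20 label. The striatum median was −0.47 within the Rnf20 label, and Rgs9 of that list stood at 3.28 to 5.49 CPM in the low-Ttr libraries and at 3.11 to 56.0 CPM in the other trained libraries, the highest being library 10. Immediate early genes, which neurons switch on with activity, had a median of 0.20, with Egr1 at 149% and Arc at 130%. A list of thyroid hormone and retinoid genes, downstream of the cargo that transthyretin carries, had a median of 0.06. The thyroid hormone receptor Thrb, a member, kept 133% and overlapped.

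**Figure D2:**
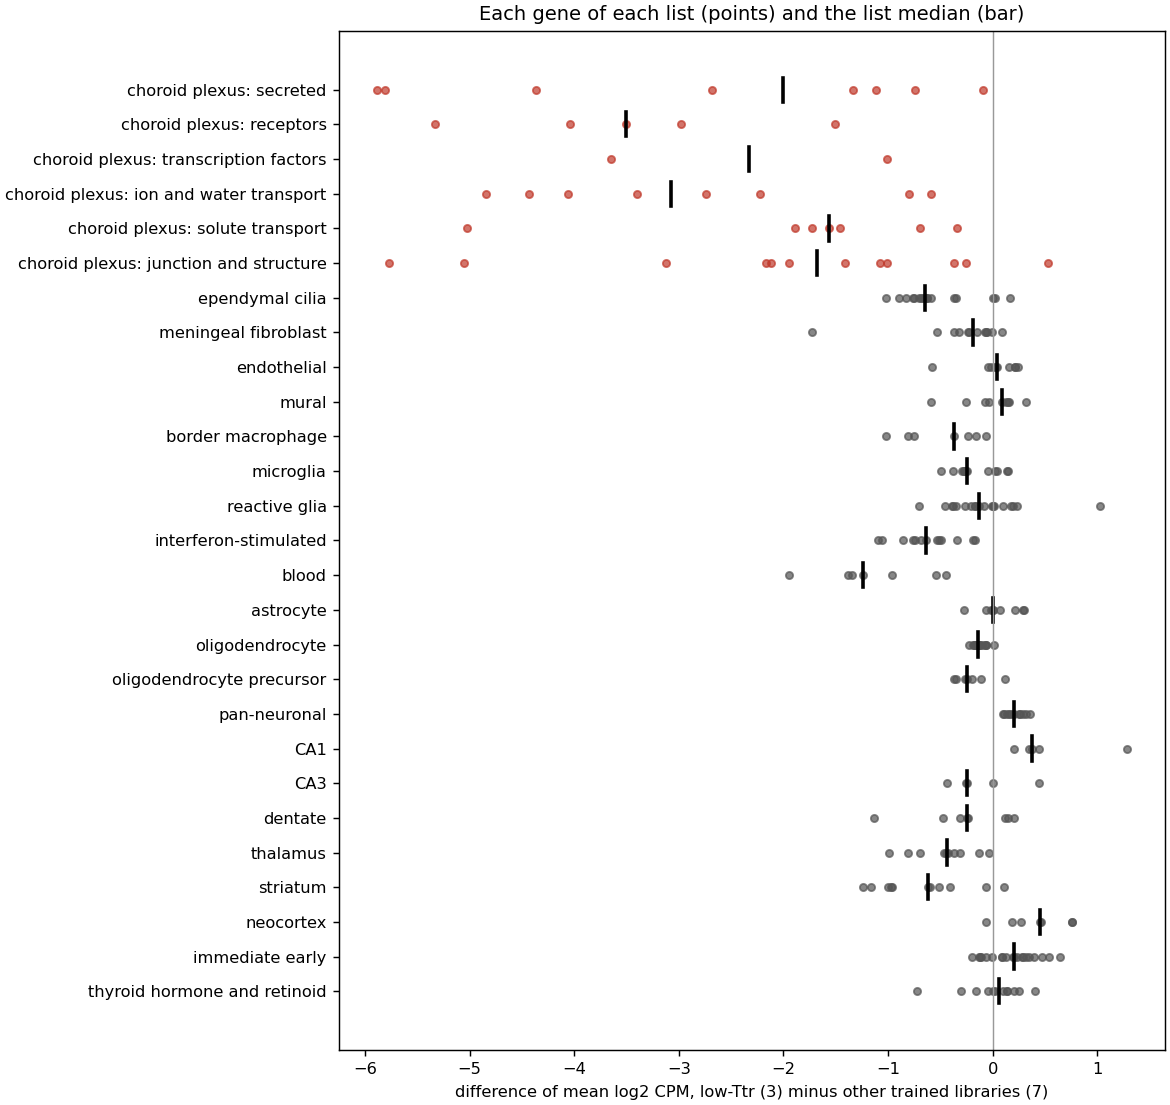
Difference of mean log2 CPM between the 3 low-Ttr and the 7 other trained libraries (horizontal axis) for each gene (points) of each list, with the list median as a bar. The 6 choroid plexus roles (red) reach from −5.89 to 0.53 with medians of −1.56 or lower, and every other list has a median between −1.24 and 0.45.

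Of the 82 genes that were lower by at least 1 without overlap, 54 stood outside the choroid plexus lists. The largest difference was that of Cltrn (collectrin), a chaperone of amino acid transporters, at 0.06, 0.36 and 0.14 CPM in libraries 5, 16 and 20 and 3.65 to 15.9 CPM in the others. Prr32 kept 6.29%, the phospholipase Pla2g5 14.4%, the collagen Col8a2 17.1% and C1qtnf3 17.5%. The adhesion proteins P-cadherin (Cdh3) and desmoglein 2 (Dsg2) kept 20.0% and 18.3%, and the polarity protein Crb3 kept 23.8%. Further genes by size of difference were Psca, RGD1561795, Ccdc187, Fmod, Itpripl1, Thbs2, Ube2u, Clec18a, Pih1d3, Tc2n and 2 genes known only by clone names, and these kept 1.42% to 33.5%. In the other direction only 6 genes met the rule (0.0403% of all genes), 5 of them with a mean of at least 1 CPM. These were Rprm, an inhibitor of the cell cycle, P4ha3, a collagen prolyl hydroxylase, the somatostatin receptor Sstr1, Hsd17b13 and the nicotinic receptor subunit Chrna3, at 210% to 282% of the level in the other trained libraries. Sstr1 stood at 24.96, 26.3 and 51.8 CPM in libraries 5, 16 and 20 and at 6.21 to 24.6 CPM in the others, so that its groups barely parted.

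The naive libraries gave a test that the choice of the 3 trained libraries had not used. In the 5 naive libraries each gene was fitted against log2 CPM of Ttr, where a slope of 1 means a rise in proportion to Ttr. Ttr formed 2 levels there, 3937 and 4008 CPM in naive libraries 9 and 12 and from 1287 to 1627 CPM in libraries 1, 2 and 11, so the slope is in the main a contrast of 2 libraries with 3. Of 13918 genes tested besides Ttr, 28 rose with Ttr (0.201%; edgeR adjusted p under 0.05) and none fell, with 583 at an unadjusted p under 0.05. Among the 28 were 19 of the 39 choroid plexus members tested. Slopes were positive for 36 of the 39 members, with a median of 0.84, and for 49.9% of all genes.

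Members of each role except the transcription factors passed. Kl had a slope of 1.07 (SE 0.07, edgeR adjusted p = 0.003), with 33.0, 26.8, 82.7, 34.0 and 97.1 CPM in naive libraries 1, 2, 9, 11 and 12. The values in libraries 9 and 12 thus stood clear of the other naive libraries, as they did for Ttr. Kcnj13 (slope 1.12), Slco1a2 (1.10), Cldn2 (1.05), Aqp1 (0.98), Clic6 (0.97), Col8a1 (0.97), Slc4a5 (0.94), Mfrp (0.94), Ace (0.93), Sostdc1 (0.91), Kcne2 (0.89), Folr1 (0.88) and Tmem72 (0.83) rose nearly in proportion to Ttr. Igfbp2 (0.76), Slc13a4 (0.69), Enpp2 (0.68), Igf2 (0.68) and Htr2c (0.56) rose less steeply and passed too. F5 (1.20), Prlr (1.02), Lmx1a (0.88) and Msx1 (0.54) did not pass. Ecrg4 (−0.18), Slc6a20 (−0.08) and Col9a3 (−0.06) were the 3 members with negative slopes, none of which passed.

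Outside the lists 9 genes rose with Ttr in the naive libraries, and of these Fmod stands on the meningeal list. Prr32 had a slope of 0.97 (SE 0.11, edgeR adjusted p = 0.013), the heparin-binding growth factor midkine (Mdk) 0.65, Vat1l 0.73, the laminin subunit Lama2 0.65, Fmod 0.71, Col8a2 0.92, the anion exchanger Slc4a2 0.44, the nucleotidase family member Nt5dc2 0.61 and the clone-named AABR07031193.1 0.73. In the trained split each of these had a lower mean in the low-Ttr libraries, from 6.29% for Prr32 to 58.0% for Slc4a2. No cilia gene of the 15 tested passed, and the median slope of that list was 0.19. The 4 blood genes tested had a median slope of −0.14, and none passed. Other lists also differed along Ttr in the naive libraries, in both directions. Interferon-stimulated genes had a median slope of 0.41, positive for 11 of 13, with 4 at an unadjusted edgeR p under 0.05. For thalamus genes it was 0.40, positive for 10 of 10. Mural (−0.26) and striatum genes (−0.30) had no positive slope among 9 each, with 5 mural genes at an unadjusted edgeR p under 0.05. No gene of these lists passed.

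**Figure D3:**
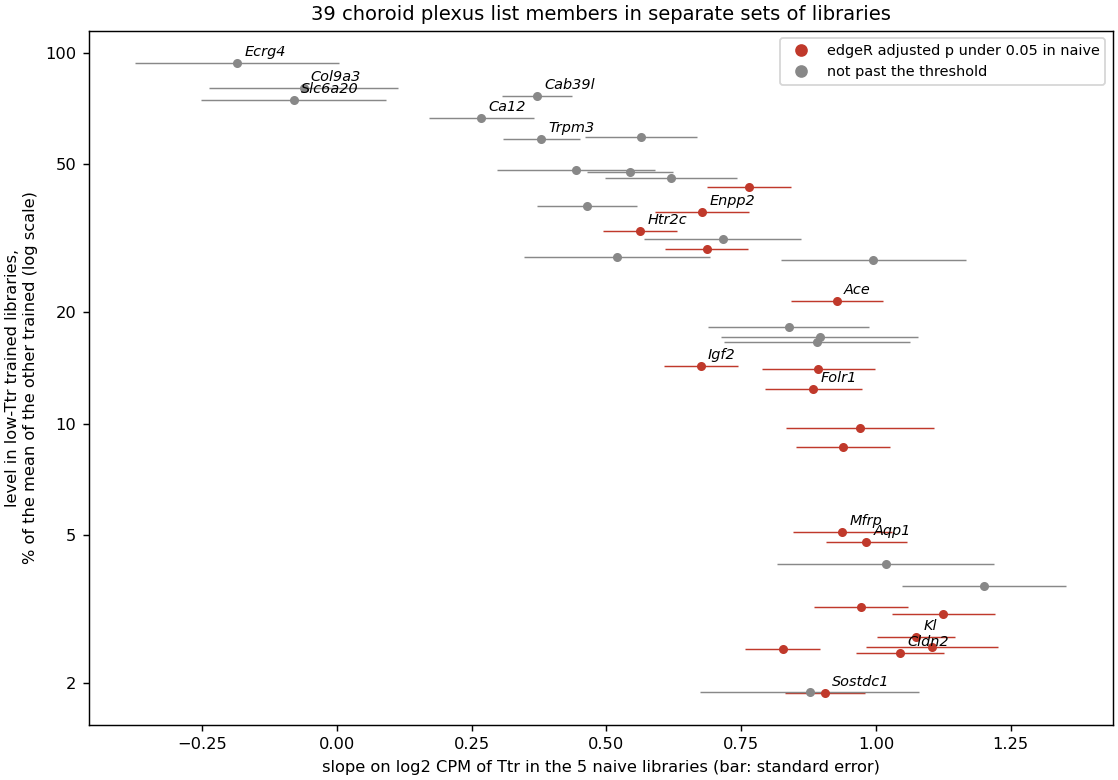
Slope on log2 CPM of Ttr in the 5 naive libraries (horizontal axis, bar: standard error) against the level in the 3 low-Ttr trained libraries in percent of the mean of the other 7 (vertical axis, log scale) for 39 choroid plexus members, Ttr left out. Red points passed the edgeR threshold in the naive libraries, and members with steeper slopes kept less in the low-Ttr trained libraries.

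The trained split and the naive slope share no library. Of the 28 genes that rose with Ttr in naive libraries, 21 (75.0%) also lay below by at least 1 without overlap in the low-Ttr trained libraries. Over all 14880 genes tested in the trained split, 0.551% did so. Of the 72 genes of that trained set that were tested in naive libraries, 21 (29.2%) passed there and 71 had positive slopes. Of all genes tested in naive libraries 0.201% passed with a positive slope, and 49.9% had positive slopes. Of the 45 among them outside the choroid plexus lists, 44 had positive slopes and 3 passed. Across the 39 members the slope and the log2 percentage kept had a Pearson correlation of −0.80 and a Spearman correlation of −0.85. This correlation runs across genes, which share libraries and are not independent.

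The naive calls rested on few libraries. Without naive library 2 no gene passed, with a smallest edgeR adjusted p of 0.071 and 357 genes at an unadjusted p under 0.05. Without library 1, 11 or 12 in turn 10, 14 and 16 genes passed, and without library 9 there were 21 rising and 15 falling genes. All 28 genes kept a positive slope in each of these 5 fits. They had been picked for rising slopes in the same libraries, so the kept sign was nearly set in advance and carries no test. DESeq2 called 57 genes, 52 rising and 5 falling, of which 30 were choroid plexus members.

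Comparisons by label were read next for the same members, to see how the 3 libraries bear on them. They fall unevenly, with 2 among the 5 scrambled trained libraries, 1 among the 5 Rnf20-labelled ones and none among the naive ones. Between scrambled trained and naive libraries the fit to all 15 libraries called no gene (0% of 14880, with 1484 at an unadjusted p under 0.05), whereas DESeq2 called 58, none a choroid plexus member. Of the 40 members tested 39 had negative fold changes, with a median of −0.75 on the log2 scale beside −0.01 for all genes, and none passed in either direction. Ttr averaged 2484 ± 1365 CPM in naive and 1459 ± 1626 CPM in scrambled trained libraries (SD, n = 5 each). Its log2 fold change was −0.77 (SE 1.06, edgeR adjusted p = 0.841). Scrambled trained library 10 held the most Ttr of the trained libraries. Without it, 19 of the 40 members and 1462 of all 14940 genes reached an unadjusted edgeR p under 0.05. None passed after adjustment. That fit drops the trained library with the most Ttr and keeps the 2 low-Ttr scrambled trained libraries. Its p-values for the members are therefore shaped by the levels of Ttr and carry no test of training.

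The same comparison was read without the 3 low-Ttr libraries. These were picked for low Ttr and come from trained groups only, so a move of the choroid plexus members towards 0 here, and a smaller spread, are set by the choice and carry no test. The median of the members became −0.18, with 34 of 40 negative, and the log2 fold change of Ttr became −0.04. The scrambled trained group then rested on libraries 6, 10 and 15. Over all genes none passed, with 2234 at an unadjusted p under 0.05 and a smallest edgeR adjusted p of 0.060. Enpp2 went from −0.72 to −0.24 and Kl from −0.92 to −0.19. The biological coefficient of variation of Ttr was 1.06 over the 15 libraries. Of the 100 genes with the highest such coefficient among 14085 with a mean of at least 1 CPM, 16 were choroid plexus members. Among all 14085 there were 40 members. The 15 libraries include the 3 picked for low Ttr, so a high spread of the members is shaped by that choice and carries no test.

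Between Rnf20-labelled and scrambled trained libraries no gene passed with all 15 libraries (0% of 14880, with 835 at an unadjusted p under 0.05), and DESeq2 called 1. The members had a median of −0.22, with 34 of 40 negative, and none passed. Ttr had a log2 fold change of −0.43 (SE 1.06, edgeR adjusted p = 0.950). Without the 3 libraries, 2 of them from the scrambled trained group, the median became −0.60 with 39 of 40 negative and Ttr −0.85, again values that the choice of libraries shapes. The group means of Ttr without the 3 libraries were 2417 CPM for libraries 6, 10 and 15 and 1326 CPM for libraries 4, 8, 14 and 18. Both label comparisons use the scrambled trained libraries, so they are not independent of each other.

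**Figure D4:**
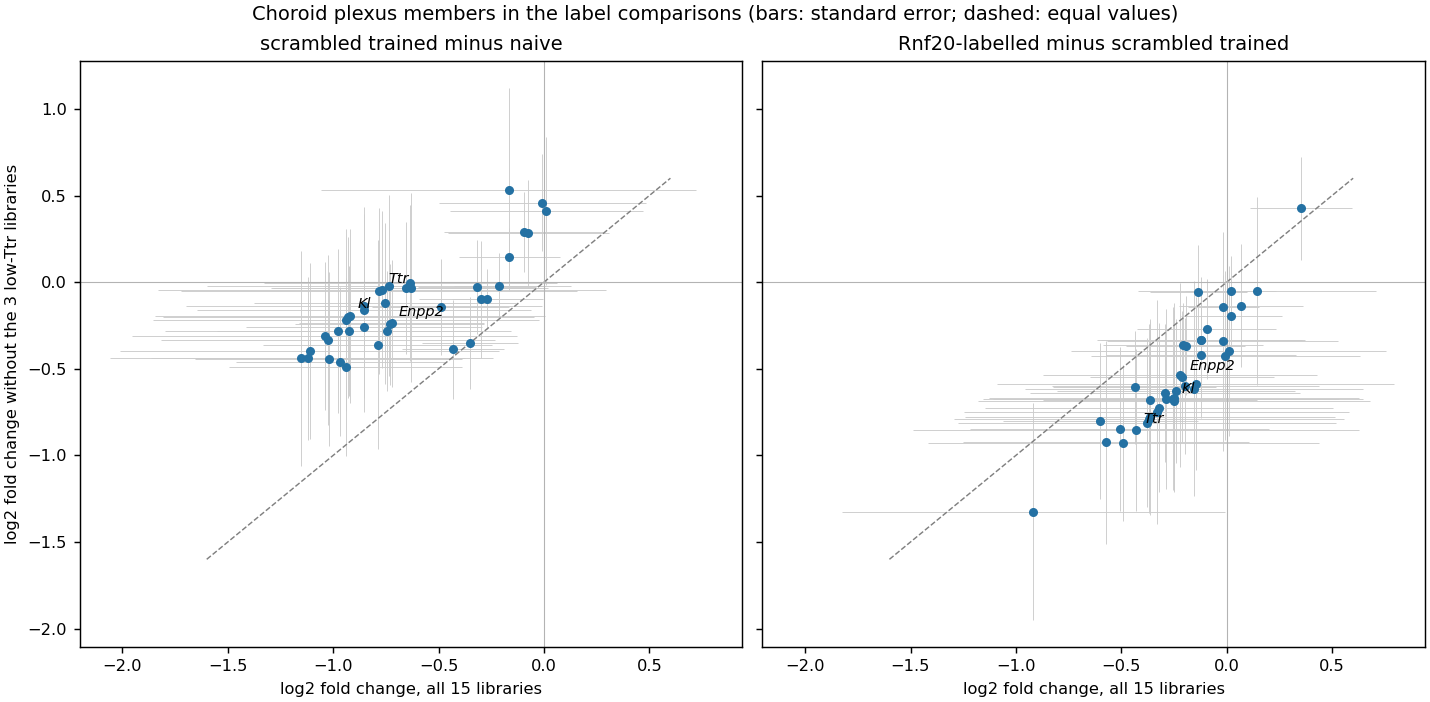
Log2 fold changes of the 40 tested choroid plexus members with all 15 libraries (horizontal axis) and without the 3 low-Ttr libraries (vertical axis), for scrambled trained minus naive (left) and Rnf20-labelled minus scrambled trained (right); bars are standard errors. The medians were −0.75 and −0.18 on the left and −0.22 and −0.60 on the right, and the move between the axes follows from leaving out libraries picked for low Ttr.

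Taking log2 CPM of Ttr as a covariate changed the calls of 1 label comparison. In a smaller fit without the 3 low-Ttr libraries no gene passed. The covariate holds the trained Ttr values that made the split, so fits with it are not independent of that choice. Between scrambled trained and naive libraries 109 of 14880 genes then passed (0.733%), 106 higher and 3 lower in the trained group, and none of them was a choroid plexus member. All 5 tested genes of the blood list were among them, Hbb with a log2 fold change of 2.49 (SE 0.35, edgeR adjusted p = 0.019), which was 2.00 (SE 0.47, edgeR adjusted p = 0.379) without the covariate. Of 13 interferon-stimulated genes 4 passed, with Irf9 at 0.87 and Isg15 at 2.25, and of 19 reactive glia genes 1 passed, Timp1 at 2.85, named after its value was seen. The median fold change was 1.53 for the reactive glia list and 1.69 for the border macrophage list, of whose 6 tested genes none passed, and these were 1.21 and 1.33 without the covariate. Also among the 109, and named after their values were seen, were the mitotic kinase Plk1 (1.87), the cyclin Ccnb1 (1.66), the topoisomerase Top2a (2.18), the tubulin Tubb2b (0.55) and, lower, the kainate receptor subunit Grik1 (−0.89). In scrambled trained library 5, which held the least Ttr, Hbb stood at 72.0 CPM. It stood at 49.8 to 92.5 CPM in naive libraries and 154 to 510 CPM in the remaining scrambled trained libraries. Isg15, Plk1, Ccnb1 and Top2a also lay within their naive range in library 5, while Irf9, Timp1, Tubb2b and Grik1 lay outside it. With the same covariate and without the 3 low-Ttr libraries no gene passed, with 2249 at an unadjusted p under 0.05. The choroid plexus members had median fold changes between −0.22 and −0.01 per role with the covariate. Between the Rnf20-labelled and scrambled trained groups no gene passed with the covariate, with 1471 at an unadjusted p under 0.05.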

How the data were processed

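Per the labels' protocols, RNA came from column extraction of frozen dorsal CA1 and was sequenced from stranded mRNA libraries made with 14 cycles of PCR. Per the submitters' processing notes, Trim Galore, FastQC, featureCounts 2.0.1 and DESeq2 were used with Rnor_6.0; the aligner, the annotation and the strand setting were not given in the sources used here. In the table that the authors deposited, values are raw read counts for 22314 genes in 15 libraries, per the file headers. The deposited normalised table was not used.

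Counts were analysed in R 4.3.3. CPM values use library totals scaled by TMM, and log2 CPM a prior count of 2. Tests were edgeR 4.0.16 quasi-likelihood fits on genes passing filterByExpr (14880 of 22314; 399 had no count), with robust dispersions (common biological coefficient of variation 0.208), two-sided, with Benjamini-Hochberg adjustment over all genes tested and a threshold of 0.05. Label comparisons fitted all 15 libraries as 3 groups with 12 residual degrees of freedom, and the slope on Ttr fitted the 5 naive libraries with 3. Counting error alone is covered by the limit of 3 reads for a gene at 0. The fits were also run on simulated counts with the same dispersion for every gene. That run does not show how the fits fare with the uneven dispersions of these data. Symbols were matched as in the table, and synonyms and promoters came from RefSeq tables of GRCr8, so no coordinates of the 2 builds were mixed.

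The members, the split and all lists were chosen with earlier results of these data known. Named were Ttr, Enpp2, Rnf20, each choroid plexus member with a mean of at least 1 CPM, up to 20 lower and 10 higher genes outside the choroid plexus lists by size of difference, up to 10 genes per direction of the naive slope, and 1 to 3 members per other list by size of difference. Alternatives were DESeq2 1.42.0, median-ratio scaling, no filter, another prior count, naive libraries as reference, values within each siRNA label, each library left out, the 3 low-Ttr libraries left out and Ttr as a covariate. A reactive glia covariate, and the Ttr covariate without the 3 libraries, were added after seeing the data. A few genes of these lists are not reported here.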

Additional observations from a re-analysis of the deposited data

Results flagged for a closer look

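In all, 90 group values were screened for 1 library far from the rest of its group, and 2 were flagged. Chance alone gives about 1 in 20, so 2 of 90 is no more than chance gives. Ttr in Rnf20-labelled library 20 stood at 6.20 on the log2 CPM scale, with the nearest library of its group at 9.51 and the farthest at 10.7. This is the value that placed library 20 among the low-Ttr libraries, so that it is a description and no test. The striatum list in scrambled trained library 10, which had the highest Ttr of the trained libraries, had a mean log2 CPM of 5.50, with the nearest library of its group at 2.65 and the farthest at 2.18 (0.858 of the range).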

How the results depend on the processing

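The median difference of the choroid plexus list, −2.03, stayed within −2.29 to −1.89 when each trained library was left out and kept its sign under all 17 alternatives run. The 88 genes without overlap and with a difference of at least 1 became 78 to 195 with each library left out, with 155 without scrambled trained library 5 and 195 without library 16, 166 against the naive libraries, 360 within the scrambled label, 551 within the Rnf20 label and 303 with no minimum difference. The cause of these moves was not tested. The 28 genes called by the slope on Ttr in naive libraries became 0 to 36 with each library left out, 57 with DESeq2, 60 over the 12 libraries above the Ttr limit and 112 over all 15; the last 2 use the trained Ttr values that made the split and are not independent of it. The label comparisons, both at 0 genes, gave 58 and 1 with DESeq2. Scrambled trained against naive gave 109 with Ttr as a covariate, a fit that also uses the trained Ttr values that made the split. The cause of these changes was not tested. Both label comparisons stayed at 0 with each library left out, without the 3 low-Ttr libraries and with a reactive glia covariate. No alternative called a choroid plexus member in them. No paired analysis was possible because the groups share no replicate numbers. With 5 naive libraries, 3 residual degrees of freedom limit the slope, and members of few reads such as Lmx1a and Prlr had the widest standard errors of the members (0.20 each).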
